A study of Mus musculus with 13 samples.

Results

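Neuropilins, semaphorins and plexins form a family of cell-surface receptors and their ligands, and 10 of its genes were followed here through 3 populations of the mouse regulatory T cell (Treg) lineage with and without c-Rel. The genes were Nrp1, Nrp2, Plxna1, Plxnb2, Plxnc1, Plxnd1, Sema4a, Sema4b, Sema4d and Sema7a, found by gene symbol in all 3 count tables. They are 10 of the 31 family genes, and of the 22048 genes, that the tables share. They were chosen by name with their measured levels in these same libraries in view, and which contrast was looked at is not recorded. The values below therefore describe these genes, and no count or p-value over them stands as independent evidence. The groups were c-Rel knockout (cRel-/- Foxp3rfp) and wild-type (cRel+/+ Foxp3rfp) mice of strain C57BL6/J, so every animal carried the Foxp3 reporter allele. c-Rel is the NF-kB subunit encoded by Rel, and no label restricts its deletion to a cell type or gives the animals' age. There were 3 knockout and 2 wild-type libraries of thymic pre-Tregs, and 2 of each genotype both of thymic de novo Tregs and of splenic Tregs. CD4 T cells were enriched magnetically and sorted before RNA sequencing. Whether the libraries of a group came from different animals is not labelled, so the p-values measure the spread between libraries, which may be technical.

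Neuropilins are co-receptors with short cytoplasmic tails that bind secreted class 3 semaphorins, members of the vascular endothelial growth factor family and latent TGF-beta. They signal mostly through plexins, large receptors whose cytoplasmic part acts on small Ras-family GTPases. Class 4 semaphorins and Sema7a are made as membrane-anchored proteins and can bind plexins directly or other receptors such as CD72 and integrins. In mouse T cells Nrp1 is widely used as a surface marker of Tregs that arose in the thymus.

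Library totals were 13656304 to 29866696 counts in pre-Tregs, 25122095 to 28235996 in de novo Tregs and 32291272 to 35114430 in splenic Tregs. Libraries of a group spread most in pre-Tregs: the coefficient of biological variation that edgeR fitted to each stage was 0.284 for pre-Tregs, 0.0939 for de novo and 0.131 for splenic cells. Levels are CPM, that is, counts scaled by library size with TMM factors over the 13 libraries, and are divided by exonic length where genes are set against each other. A gene is called where its edgeR p, adjusted by Benjamini-Hochberg over every gene of the fit, is under 0.05, and each log2 difference has the standard error (SE) of that fit. Rel itself was at 54.9, 52.2 and 65.9 CPM in the pre-Treg libraries labelled knockout, against 104 and 99.6 CPM in wild type (log2 difference -0.80, adjusted p = 0.552). Rel was called at no stage. It had 92.0 and 101 CPM in knockout de novo Tregs, against 104 and 102 CPM in wild type, and 43.3 and 46.0 CPM in knockout splenic Tregs, against 47.2 and 56.6 CPM in wild type. The labels do not say which exons the allele lacks, so a count over the whole gene is no check of genotype, and every direction below rests on the labels. Foxp3, the transcription factor that defines Tregs, fitted the population labels, with 19.8 to 101 CPM in pre-Tregs and 682 to 921 CPM in the other 8 libraries. Each stage also has its own count table, and spleen stands for the latest stage alone, so stage cannot be told apart from table or tissue.

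Per kilobase of exon, Sema4d had the highest mean level of the 10 genes in all 6 groups, at 32.0 CPM per kb in knockout and 31.3 in wild-type pre-Tregs, 67.3 in knockout and 62.8 in wild-type de novo Tregs, and 71.0 in knockout and 80.6 in wild-type splenic Tregs. Sema4a was next in pre-Tregs and Nrp1 next in the later stages. In knockout pre-Tregs the libraries of Sema4d and Sema4a overlapped, and in knockout splenic Tregs those of Sema4d and Nrp1 did. The middle of the order was held by Sema4b, Plxnc1 and Plxnd1, whose group means lay between 1.95 and 7.68 CPM per kb. Nrp2 also lay there in wild-type thymic cells, at 3.54 CPM per kb in pre-Tregs and 2.48 in de novo Tregs. In knockout cells it had 0.660 and 1.11 CPM per kb at these stages. Its wild-type pre-Treg libraries overlapped those of Sema4b and Plxnc1. Plxna1 and Plxnb2 lay between 0.280 and 2.33 CPM per kb. Sema7a was the lowest in 5 groups, and Nrp2 in splenic knockout Tregs, where the libraries of these genes overlapped.

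**Figure D1:**
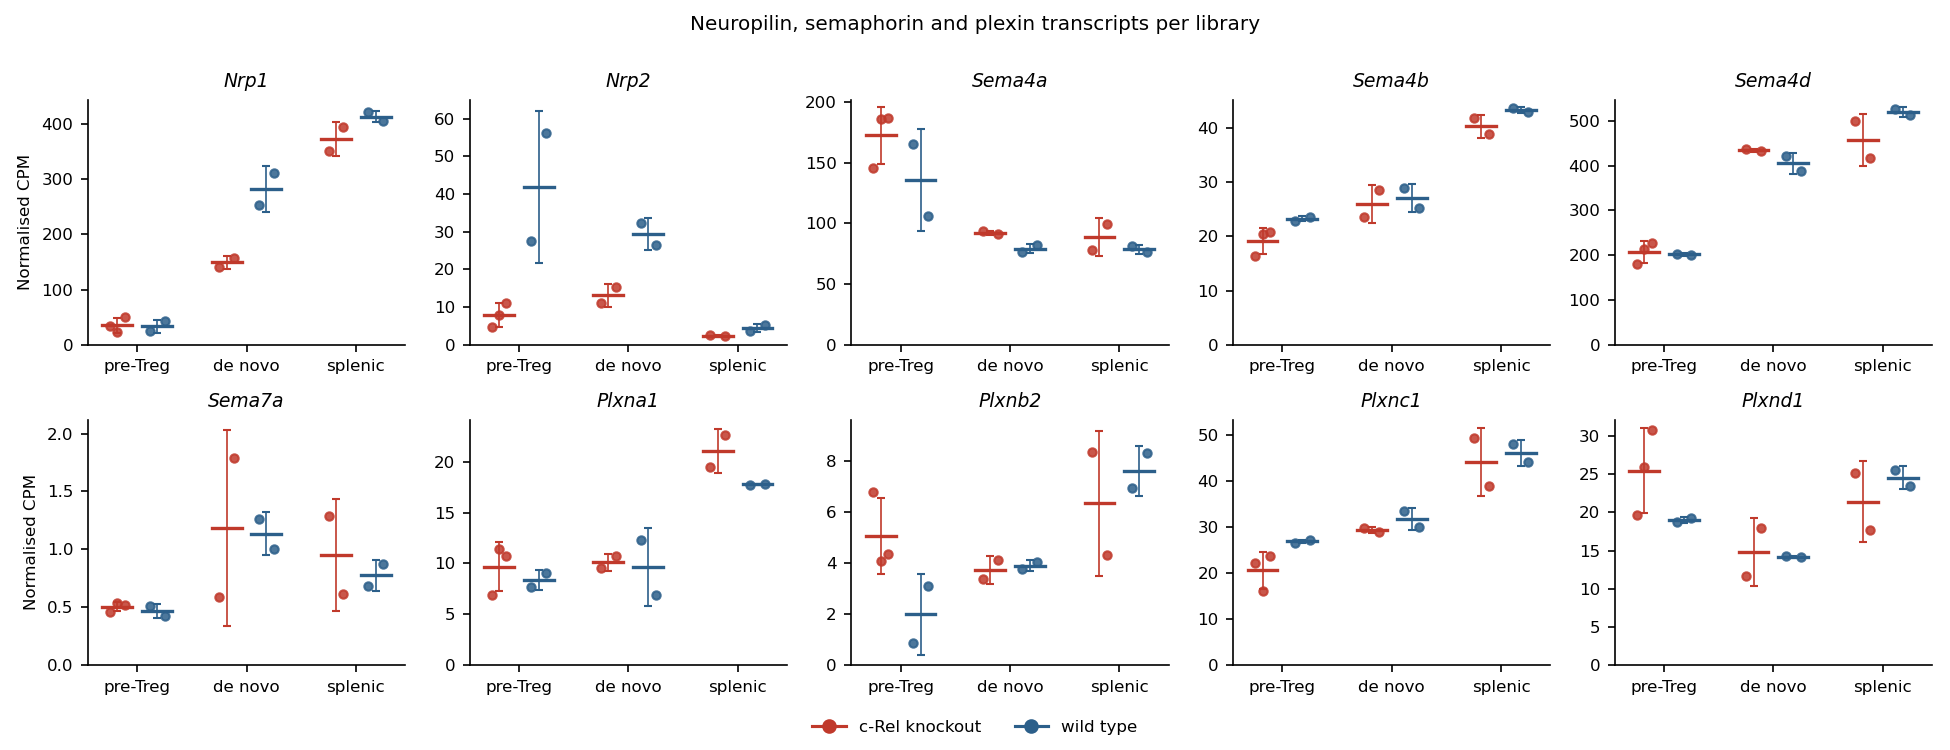
TMM-normalised CPM of the 10 genes (y axis, linear, from 0) in pre-Tregs, de novo Tregs and splenic Tregs (x axis). Each point is a library, c-Rel knockout left of wild type; lines are group means and bars the SD. Nrp1 and Sema4d are lower in pre-Tregs than in the later stages, and the knockout points of Nrp2 lie below the wild-type points at every stage.

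Nrp1 fell in knockout de novo Tregs, overlapped between genotypes in pre-Tregs and was not called in splenic Tregs. Its gene lies on GRCm38 chr8:128359073-128505462, plus strand. Nrp1 had 33.0, 22.8 and 49.5 CPM in knockout pre-Tregs, against 25.5 and 42.1 CPM in wild-type pre-Tregs. These groups overlapped, and the log2 difference of knockout over wild type was 0.06 (SE 0.35, adjusted p = 0.963). In de novo Tregs Nrp1 had 141 and 157 CPM in knockout libraries, against 252 and 312 CPM in wild-type libraries. Both knockout libraries were lower than both wild-type libraries, and Nrp1 fell by 0.92 on the log2 scale (SE 0.10, adjusted p = 0.000305), a 1.89-fold lower level. In splenic Tregs it had 352 and 394 CPM in knockout libraries, against 421 and 406 CPM in wild type. The splenic libraries did not overlap, but the log2 difference was only -0.15 (SE 0.10, adjusted p = 0.543). Leaving out splenic knockout replicate 2, the higher of the pair, gave -0.23 and an adjusted p of 0.0235, and over all the alternatives run in splenic Tregs the adjusted p of Nrp1 ran from 0.0235 to 1.0. As these are bulk libraries, fewer cells with Nrp1 and less Nrp1 RNA per cell cannot be told apart.

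Nrp2, the other neuropilin, was lower in knockout libraries than in wild-type libraries at each stage, without overlap. For no gene in this report is the share of all genes without overlap given. With 2 or 3 libraries per group such a gap can arise without a genotype effect, so it only describes the libraries. Its gene lies on GRCm38 chr1:62703285-62818695, plus strand. It had 4.60, 7.81 and 11.0 CPM in knockout pre-Tregs, against 27.6 and 56.1 CPM in wild-type pre-Tregs. The highest knockout library stood below the lowest wild-type library, yet the difference did not pass the test over all genes. The log2 difference was -2.41 (SE 0.41, adjusted p = 0.324), with an unadjusted edgeR p of 0.000395 for this row of the fit. In de novo Tregs Nrp2 had 11.0 and 15.2 CPM in knockout libraries, against 32.3 and 26.4 CPM in wild-type libraries. It fell by 1.16 on the log2 scale (SE 0.17, adjusted p = 0.00208), a 2.24-fold lower level, and here too the libraries did not overlap. In splenic Tregs Nrp2 was low throughout, with 2.44 and 2.21 CPM in knockout libraries, from 69 to 83 counts, against 3.75 and 5.13 CPM in wild-type libraries, from 121 to 171 counts. The log2 difference of -0.93 (SE 0.31, adjusted p = 0.221) was about as large as in de novo Tregs but was not called.

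For Nrp2 in pre-Tregs the call depended on the tool and the settings. The log2 difference lay between -2.84 and -1.82 in every alternative run. The adjusted p was 2.5e-05 with DESeq2 and 0.481 with limma-voom, 0.0288 with no count filter, and 0.0112 with 1 spread shared over the stages. Without knockout replicate 2 it was 0.0423, and over all the alternatives of this value it ran from 1.39e-06 to 0.999. Ikzf2, which encodes the Treg-associated factor Helios, was also lower in knockout pre-Tregs, at 111 to 190 CPM against 429 to 583 CPM in wild type (log2 difference -1.69, SE 0.26, adjusted p = 0.307). Its part in the Nrp2 difference was not tested.

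**Figure D2:**
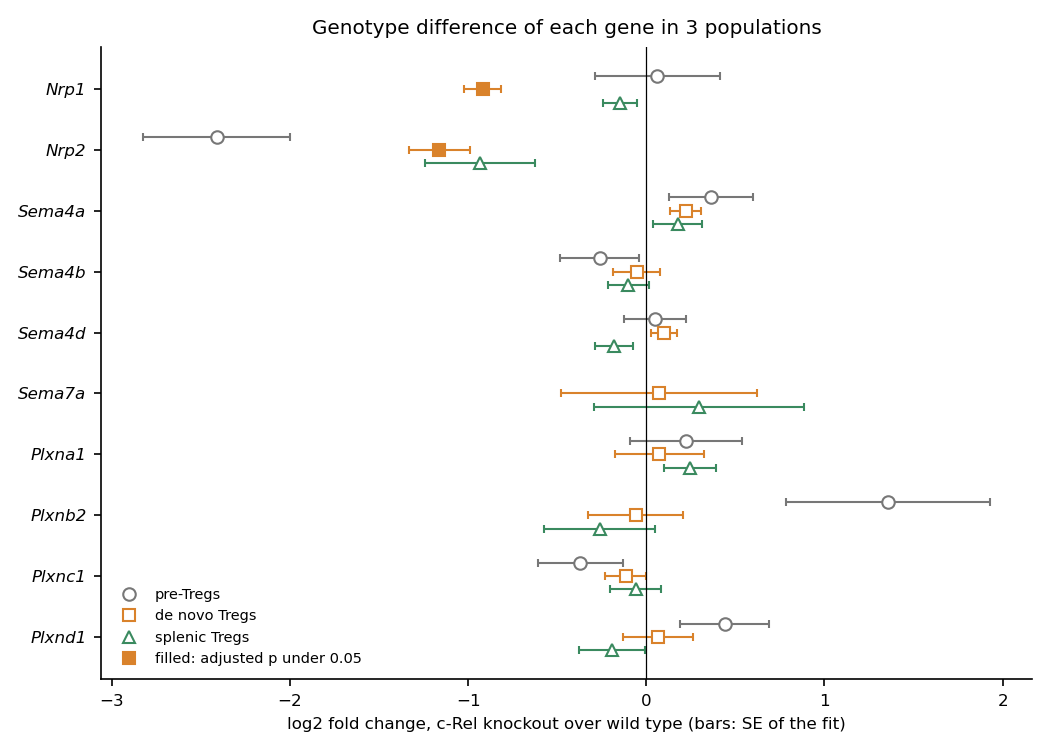
log2 fold change of c-Rel knockout over wild type (x axis) for each of the 10 genes (y axis) in pre-Tregs (circles), de novo Tregs (squares) and splenic Tregs (triangles), with the SE of the edgeR fit. Filled symbols passed an adjusted p of 0.05 over all genes; these are Nrp1 and Nrp2 in de novo Tregs.

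The ratio of the neuropilins did not overlap between genotypes in pre-Tregs or in splenic Tregs, and it was higher in later stages. It was given no test. Per length, Nrp1 exceeded Nrp2 by 14.4, 5.85 and 8.99 times in the 3 knockout pre-Treg libraries, against 1.85 and 1.504 times in the wild-type libraries. Among de novo Tregs the ratio was 25.8 and 20.7 in knockout libraries, against 15.7 and 23.7 in wild type. The genotypes thus overlapped at the stage where both genes were called as lower in the knockout. In splenic Tregs it was 289 and 357 in knockout libraries, against 225 and 159 in wild-type libraries.

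**Figure D3:**
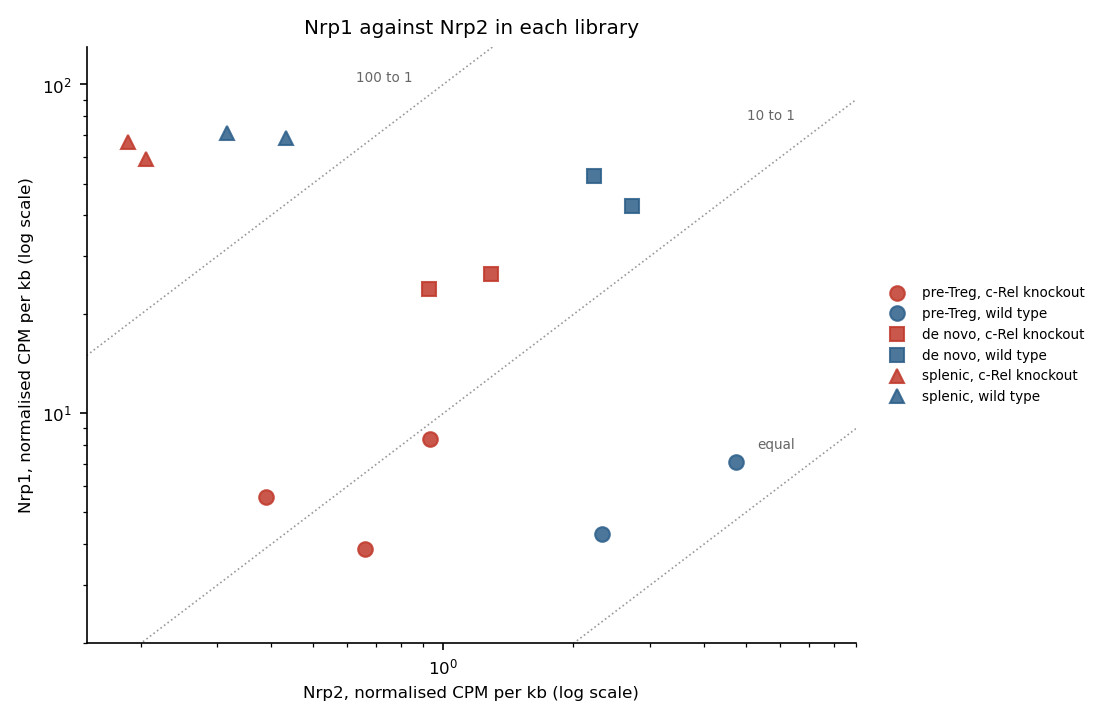
Nrp1 (y axis) against Nrp2 (x axis) in each of the 13 libraries, both in normalised CPM per kb on log scales; dotted lines mark equal levels and ratios of 10 and 100 to 1. Wild-type pre-Tregs lie near the equal line, with ratios of 1.85 and 1.504, and all splenic libraries above 100 to 1.

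Because Nrp1 and Nrp2 were the members that fell together in de novo Tregs, their promoter windows are shown, from 250 bases before to 50 after the start site in RefSeq (GRCm38.p6). Nrp1 is at chr8:128358823-128359122 and Nrp2 at chr1:62703067-62703366, both on the plus strand, and capitals mark the GC box, GGGCGG or its reverse complement. Adjoining matches form 1 run of capitals.
Nrp1: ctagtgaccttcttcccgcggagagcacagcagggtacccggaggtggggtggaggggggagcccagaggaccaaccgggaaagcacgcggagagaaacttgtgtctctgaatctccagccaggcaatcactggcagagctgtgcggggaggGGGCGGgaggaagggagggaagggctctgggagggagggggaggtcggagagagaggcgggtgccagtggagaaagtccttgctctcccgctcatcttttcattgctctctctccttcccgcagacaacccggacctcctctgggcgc
Nrp2: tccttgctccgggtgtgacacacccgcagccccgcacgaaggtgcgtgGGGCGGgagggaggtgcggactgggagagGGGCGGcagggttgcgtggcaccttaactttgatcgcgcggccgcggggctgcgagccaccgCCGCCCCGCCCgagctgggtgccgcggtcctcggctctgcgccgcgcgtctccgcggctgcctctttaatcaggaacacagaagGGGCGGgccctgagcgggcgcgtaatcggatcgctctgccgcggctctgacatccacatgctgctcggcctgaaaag
The Nrp1 window held 1 GC box match and the Nrp2 window 5, with a GC content of 64.0% and 70.7% against a median of 52.7% over all windows. RefSeq windows were at hand for 9 of the 10 genes, 16 windows in all, and GC boxes were present in 13 of these 16 windows, against 35.7% of the 32851 windows of mouse genes. The NF-kB consensus, searched on both strands, matched 2 of the 16 windows, against 4.51% of all windows. These were 1 of the 4 windows of Sema4a (chr3:88459052-88459351, minus strand) and 1 of the 2 of Sema4b (chr7:80186620-80186919, plus strand), and the matching letters were the same in both genes, GGGATACTCC. It matched neither neuropilin window. The forkhead motif TGTTTAC matched none of the 16 windows, against 3.65% of all windows. A match is a description of the letters, and the windows are 300 bases long.

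None of the 4 plexins, the signalling receptors of the family, was called between genotypes at any stage. In pre-Tregs Plxnc1 (GRCm38 chr10:94790866-94944578, minus strand), the Sema7a receptor, had 22.2, 16.1 and 23.7 CPM in knockout libraries, against 26.6 and 27.2 CPM in wild-type libraries. Plxnd1 (chr6:115954811-115995005, minus strand), the receptor for Sema3e in vascular development, had 19.7, 26.0 and 30.9 CPM in knockout pre-Tregs, against 18.7 and 19.3 CPM in wild type. Neither gene overlapped there, Plxnc1 lying lower and Plxnd1 higher in the knockout, with log2 differences of -0.37 (SE 0.24) and 0.44 (SE 0.25) and an adjusted p of 0.724 for each. In de novo Tregs Plxnc1 had 29.9 and 28.9 CPM in knockout libraries, against 33.5 and 30.1 CPM in wild-type libraries. Plxnd1 had 11.7 and 18.0 CPM in knockout libraries, against 14.3 and 14.1 CPM in wild-type libraries. The libraries of Plxnc1 stood apart by a small margin and those of Plxnd1 overlapped; neither gene was called, with log2 differences of -0.12 (SE 0.11, adjusted p = 0.68) and 0.07 (SE 0.20, adjusted p = 0.916). Plxna1 (chr6:89316314-89362620, minus strand), a neuropilin partner for class 3 semaphorins, had 9.53 and 10.7 CPM in knockout de novo Tregs, against 12.3 and 6.93 CPM in wild type. It overlapped in pre-Tregs too, at 6.90, 11.4 and 10.7 CPM in knockout libraries against 7.69 and 9.06 CPM in wild type. In all, 970 bases, 10.7% of its exonic length, are shared with the antisense gene Gm26811, and since the strandedness of the counting is not given, reads there cannot be assigned to either gene.

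Plxnb2 (chr15:89155549-89171120, minus strand), a class 4 semaphorin receptor, had the largest difference of the 4 plexins, in pre-Tregs, and it rested on low counts. It had 6.79, 4.08 and 4.35 CPM in knockout pre-Tregs, against 0.870 and 3.12 CPM in wild-type pre-Tregs, where the libraries held 12 to 44 counts. The groups did not overlap, but the log2 difference of 1.36 (SE 0.57) was not called (adjusted p = 0.72). Without wild-type replicate 1 the value was 0.711 and without wild-type replicate 2 it was 2.54. The 12 myeloid and dendritic marker genes had a summed level of 92.7 to 133 CPM in knockout pre-Tregs against 33.2 to 70.8 CPM in wild type. Their median log2 difference was 1.37, and 0 of the 12 were called. None of the 12 was at 0 in either group. The median over tested genes was 0.944 for thymic epithelium and mesenchyme, 0.63 for endothelial and 0.26 for B and plasma cell markers. It was -0.0328 for the Treg lineage, -0.197 for CD8 T and NK and -0.442 for erythroid and platelet markers. In each of these lists 0 genes were called. The part of any list in the Plxnb2 difference was not tested. In the later stages the Plxnb2 libraries overlapped between genotypes. They held 3.36 and 4.13 CPM in knockout de novo Tregs, against 3.76 and 4.06 CPM in wild type, and 8.36 and 4.33 CPM in knockout splenic Tregs, against 6.94 and 8.31 CPM in wild type.

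In splenic Tregs the plexins had log2 differences from -0.26 (Plxnb2, SE 0.31) to 0.24 (Plxna1, SE 0.14), and none was called. Plxna1 had 19.5 and 22.7 CPM in knockout libraries, against 17.8 and 17.9 CPM in wild-type libraries, without overlap (adjusted p = 0.507). Plxnc1 and Plxnd1 overlapped, and in both genes splenic knockout replicate 1 was above replicate 2, at 49.4 and 38.9 CPM for Plxnc1, against 48.1 and 44.1 CPM in wild type, and 25.2 and 17.7 CPM for Plxnd1, against 25.6 and 23.5 CPM in wild type. Without knockout replicate 1, which left 1 knockout library, the log2 difference was 0.348 for Sema4a and -0.312 for Sema4d. It was -0.468 for Plxnd1, -0.81 for Plxnb2 and -0.24 for Plxnc1. Without knockout replicate 2 it was 0.0381 for Plxnd1, 0.134 for Plxnb2 and 0.102 for Plxnc1.

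None of the 4 semaphorins, the ligands, was called between genotypes at any stage. Sema4d (chr13:51701246-51793747, minus strand), which binds plexin B1 and, on lymphoid cells, CD72, had 436 and 432 CPM in knockout de novo Tregs, against 422 and 388 CPM in wild-type de novo Tregs. In splenic Tregs it had 499 and 417 CPM in knockout libraries, against 527 and 512 CPM in wild type. Knockout libraries were thus above wild type in de novo Tregs and below it in splenic Tregs, by log2 differences of 0.10 (SE 0.07, adjusted p = 0.548) and -0.18 (SE 0.11, adjusted p = 0.506), and neither was called. In pre-Tregs Sema4d overlapped between genotypes, with 179, 215 and 226 CPM in knockout libraries against 204 and 200 CPM in wild-type libraries.

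Sema4a (chr3:88435959-88461182, minus strand), a class 4 semaphorin reported to bind Nrp1 on mouse Tregs, had a positive log2 difference at all 3 stages, 0.36, 0.22 and 0.18 from pre-Tregs to splenic Tregs, and was called at none. It had 146, 186 and 187 CPM in knockout pre-Tregs, against 165 and 106 CPM in wild-type pre-Tregs, with overlap. In de novo Tregs it had 93.5 and 91.2 CPM in knockout libraries, against 76.5 and 81.9 CPM in wild-type libraries, without overlap (SE 0.09, adjusted p = 0.195). In splenic Tregs the groups overlapped again, at 77.9 and 99.7 CPM in knockout libraries against 81.2 and 76.1 CPM in wild type.

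Sema4b (chr7:80186841-80226527, plus strand), a class 4 semaphorin, had 16.3, 20.4 and 20.8 CPM in knockout pre-Tregs, against 22.9 and 23.6 CPM in wild-type pre-Tregs. In de novo Tregs it had 23.6 and 28.5 CPM in knockout libraries, against 28.9 and 25.2 CPM in wild type. In splenic Tregs it had 41.9 and 38.9 CPM in knockout libraries, against 43.8 and 42.9 CPM in wild type. The genotypes overlapped in de novo Tregs and stood apart in the other stages. Sema4b had log2 differences of -0.26 (SE 0.22) in pre-Tregs, -0.05 (SE 0.13) in de novo Tregs and -0.10 (SE 0.12) in splenic Tregs, with none called. Sema7a (chr9:57940113-57962864, plus strand), a membrane-anchored semaphorin that binds plexin C1 and beta-1 integrin, had the fewest counts, at 0.425 to 1.79 CPM and 6 to 45 counts per library. It was left out of the pre-Treg test by the count filter, and its SE of 0.55 in de novo and 0.59 in splenic Tregs was larger than either log2 difference, 0.07 and 0.30.

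Counted over the members, knockout against wild type called 0 of 9 tested in pre-Tregs, where edgeR called 0% of the 14746 genes tested. An unadjusted p under 0.05 was reached there by 2 members, and by 969 of all genes; DESeq2 called 1 member, Nrp2, and limma-voom 0. The de novo Treg comparison called 2 of 10, both lower, where 6.46% of 11855 genes were called. In splenic Tregs 0 of 10 were called, where 1.37% of 12264 genes were; 1 member had an unadjusted p under 0.05, and DESeq2 and limma-voom called 0. The median log2 difference of the tested members was 0.06, 0.01 and -0.13 in the 3 stages, against 0.03, -0.0027 and 0.00055 over all tested genes. Marker lists of other cell types and of the Treg lineage were also compared between genotypes in de novo Tregs. The 9 endothelial markers summed to 295 to 299 CPM in knockout libraries against 226 to 227 CPM in wild type, with Pecam1 called and 4 of the 9 at 0 in each group. The myeloid list was at 145 to 150 CPM in knockout against 98.5 to 99.0 CPM in wild type, with Irf8 called and 1 of its 12 genes at 0 in wild type, and the list of thymic epithelium and mesenchyme at 31.5 to 32.1 CPM in knockout against 17.5 to 20.0 CPM in wild type, with Epcam called and 3 of its 8 genes at 0 in the knockout. In these 3 lists 1 gene each was called, as higher, and the summed levels were higher in the knockout, but the median log2 difference over the genes tested was -0.0605 for the 2 endothelial, -0.813 for the 9 myeloid and 0.799 for the 3 epithelial and mesenchymal genes. The 6 erythroid and platelet genes summed to 0.63 to 0.953 CPM in knockout, against 96.3 CPM in wild-type replicate 1 and 2.76 CPM in replicate 2. Most of their wild-type level thus lay in 1 library. Hba-a1 and Hbb-bs were called as lower, and 3 of the 6 were at 0 in the knockout. The 7 B and plasma cell genes summed to 35.4 to 39.3 CPM in knockout against 31.7 to 33.7 CPM in wild type; Cd79b and Ms4a1 were called, 1 as higher and 1 as lower, and the median log2 difference of the 4 tested was -1.0. The 7 CD8 T and NK genes summed to 43.6 to 57.2 CPM in knockout against 53.4 to 56.1 CPM in wild type, with Eomes called as lower. The 7 Treg lineage genes summed to 6190 to 6443 CPM in knockout against 5990 to 6143 CPM in wild type, with Ctla4 and Il2ra called as higher. Whether other cells were present, and their part in the neuropilin differences, was not tested.

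Whether the genotype difference itself changed with stage was asked in a fit of all 13 libraries. None of the 10 members passed the joint test of the genotype by stage interaction, where 0.161% of 13058 genes did; 1 member had an unadjusted p under 0.05, and DESeq2 and limma-voom called 0. Nrp2 had an adjusted p of 0.376 and Nrp1 of 0.546. The Nrp1 difference was larger by 0.77 on the log2 scale in splenic than in de novo Tregs (SE 0.41, adjusted p = 1.0), that is, less negative in the spleen. A fit of the 8 de novo and splenic libraries alone, chosen after seeing the data and without the wider pre-Treg spread, gave 0.78 with an adjusted p of 0.0408, where 1.07% of 12532 genes were called, and over all alternatives the adjusted p ran from 0.0408 to 1.0. With 1 spread shared over the stages, Nrp1 and Nrp2 were no longer called in de novo Tregs, with adjusted p of 0.29 and 0.311 and log2 differences of -0.92 and -1.16 as before.

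From pre-Tregs to de novo Tregs, 6 of the 10 members changed in knockout cells, where 32.4% of 13058 genes did, and 3 in wild type, where 30.7% did. Nrp1 averaged 149 ± 11.4 CPM in knockout de novo Tregs (SD, n = 2), against 35.1 ± 13.5 CPM in knockout pre-Tregs (n = 3), and rose by 2.09 on the log2 scale (SE 0.26, adjusted p = 0.000113). In wild type it averaged 282 ± 41.9 CPM in de novo Tregs, against 33.8 ± 11.8 CPM in pre-Tregs (SD, n = 2 each), and rose by 3.06 (SE 0.32, adjusted p = 5.62e-05). The pre-Treg levels overlapped between genotypes and the de novo levels did not; the difference of the steps, -0.97 on the log2 scale (SE 0.40), was not called (adjusted p = 0.452). Sema4d rose by 1.07 (SE 0.13) in knockout cells, to a mean of 434 CPM, and by 1.01 (SE 0.14) in wild-type cells, to 405 CPM; the difference of the steps was 0.06 (SE 0.19, adjusted p = 0.928).

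Sema4a moved the other way at this step. It fell by 0.90 on the log2 scale in knockout cells (SE 0.19, adjusted p = 0.00332) and by 0.78 in wild-type cells (SE 0.20, adjusted p = 0.0141). The wild-type call was lost without pre-Treg wild-type replicate 1, the higher of the pair, where the value was -0.43, and without either de novo wild-type library, where the adjusted p was 0.0905 and 0.0726. In knockout cells Plxnd1 also fell, by 0.78 (SE 0.24), and Plxnc1 and Sema4b rose by 0.51 (SE 0.17) and 0.44 (SE 0.15). These calls were near the threshold: that of Plxnc1 was lost when any wild-type library, of whichever stage, or either de novo knockout library was left out, with values from 0.469 to 0.523 and an adjusted p up to 0.186. The Sema4b call was lost without any library other than pre-Treg knockout replicates 2 and 3, with values from 0.284 to 0.554 and an adjusted p up to 0.35, and also with limma-voom (adjusted p = 0.0531) and with no count filter (0.0617). That of Plxnd1 was lost without pre-Treg knockout replicate 3 (-0.624, adjusted p = 0.0784) or de novo knockout replicate 1 (-0.52, adjusted p = 0.232). Nrp2 had no called change at this step, with a log2 difference of 0.74 (SE 0.34) in knockout and -0.51 (SE 0.37) in wild-type cells. Without pre-Treg knockout replicate 3 Nrp2 was called in knockout cells (1.06, adjusted p = 0.0441), and without pre-Treg wild-type replicate 2 Plxnb2 was called in wild type (2.15, adjusted p = 0.03). The members not called in knockout cells were Nrp2, Plxna1, Plxnb2 and Sema7a, with log2 differences from -0.43 (Plxnb2, SE 0.43) to 1.22 (Sema7a, SE 0.57). In wild type Nrp2, Plxna1, Plxnb2, Plxnc1, Plxnd1, Sema4b and Sema7a were not called, from -0.51 (Nrp2) to 1.28 (Sema7a, SE 0.67).

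From de novo Tregs of the thymus to splenic Tregs, 4 members changed in knockout cells, where 12.9% of genes did, and 2 in wild type, where 7.45% did. Nrp2 fell in both genotypes, by 2.49 on the log2 scale in knockout cells (SE 0.41, adjusted p = 0.00187) and by 2.72 in wild-type cells (SE 0.40, adjusted p = 0.00155). Its wild-type mean was 4.44 ± 0.978 CPM in splenic Tregs, against 29.3 ± 4.16 CPM in de novo Tregs (SD, n = 2 each), a 6.6-fold lower level. Sema4b rose by 0.63 (SE 0.16) in knockout and 0.68 (SE 0.16) in wild-type cells. Each call was lost without any 1 of its 4 libraries, where the values ran from 0.52 to 0.79 in knockout cells, with an adjusted p up to 0.22, and from 0.599 to 0.793 in wild type, with an adjusted p up to 0.197. Nrp1 rose in knockout cells, by 1.32 (SE 0.29, adjusted p = 0.0107), but the call was lost without either de novo knockout library or without splenic knockout replicate 2. In wild type its log2 difference was 0.55 (SE 0.29, adjusted p = 0.298), with libraries that did not overlap. Plxna1 rose in knockout cells, by 1.06 (SE 0.29, adjusted p = 0.0279), a call lost without any 1 of the 4 libraries compared (0.962 to 1.16, adjusted p up to 0.189). In wild type Plxna1 had a log2 difference of 0.89 (SE 0.29, adjusted p = 0.0807), which DESeq2 (adjusted p = 0.0311) and limma-voom (0.0371) called. Sema4a stayed near 0 at this step, with log2 differences of -0.06 (SE 0.20) in knockout and -0.01 (SE 0.20) in wild-type cells. In the fit of all libraries edgeR called none of Sema4d, Sema7a, Plxnb2, Plxnc1 and Plxnd1 in either genotype. Their log2 differences ran from -0.32 (Sema7a, SE 0.60) to 0.76 (Plxnb2, SE 0.46) in knockout cells. In wild-type cells they ran from -0.55 (Sema7a, SE 0.61) to 0.96 (Plxnb2, SE 0.46). DESeq2 called Plxnc1 in knockout cells (adjusted p = 0.0302) and Plxnd1 in wild type (0.0316), and limma-voom called Plxnc1 in knockout cells (0.0476). Without pre-Treg knockout replicate 2 Plxnc1 was also called in both genotypes and Plxna1 and Plxnd1 in wild type, and without replicate 1 the same calls were made except that of Plxnc1 in wild type, with an adjusted p from 0.00612 to 0.0412 over these calls. In the 8-library fit 5 members were called in knockout cells, where 28.6% of 12532 genes were, and 8 in wild type, where 23.6% were. Among these was Plxnc1 in knockout cells (edgeR adjusted p = 0.00627). In wild type they included Plxnb2 (edgeR adjusted p = 0.0398), Plxnc1 (0.0141) and Plxnd1 (0.0216).

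Of the 21 other plexin and semaphorin genes in the tables, 8 reached a group mean of 1 CPM: Plxna3, Plxnb1, Sema3f, Sema4c, Sema4f, Sema6b, Sema6c and Sema6d. The 7 class 3 semaphorins, the secreted neuropilin ligands, were low; their highest group mean was 1.597 CPM, of Sema3f in knockout pre-Tregs, and Sema3e had no count in any library. Of the 8 tested in de novo Tregs 2 were lower in the knockout and 0 higher, where 6.46% of all genes tested were called. Plxna3, a neuropilin partner, had 7.35 and 6.87 CPM in knockout libraries, against 15.3 and 11.99 CPM in wild-type libraries. Plxna3 fell by 0.94 on the log2 scale (SE 0.19, adjusted p = 0.0136), without overlap. Sema6d, a transmembrane class 6 semaphorin, had 0 and 0.198 CPM in knockout libraries, against 1.15 and 1.45 CPM in wild type, and was called as lower (adjusted p = 0.0248). Neither was called in pre-Tregs or splenic Tregs, where 0 of 8 and 0 of 7 tested genes were, with 1 and 0 at an unadjusted p under 0.05 in edgeR and 0 called by DESeq2 or limma-voom. In pre-Tregs Sema3f stood at 1.04, 1.58 and 2.17 CPM in knockout libraries, against 0.29 and 0.0714 CPM in wild type (adjusted p = 0.609).

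**Figure D4:**
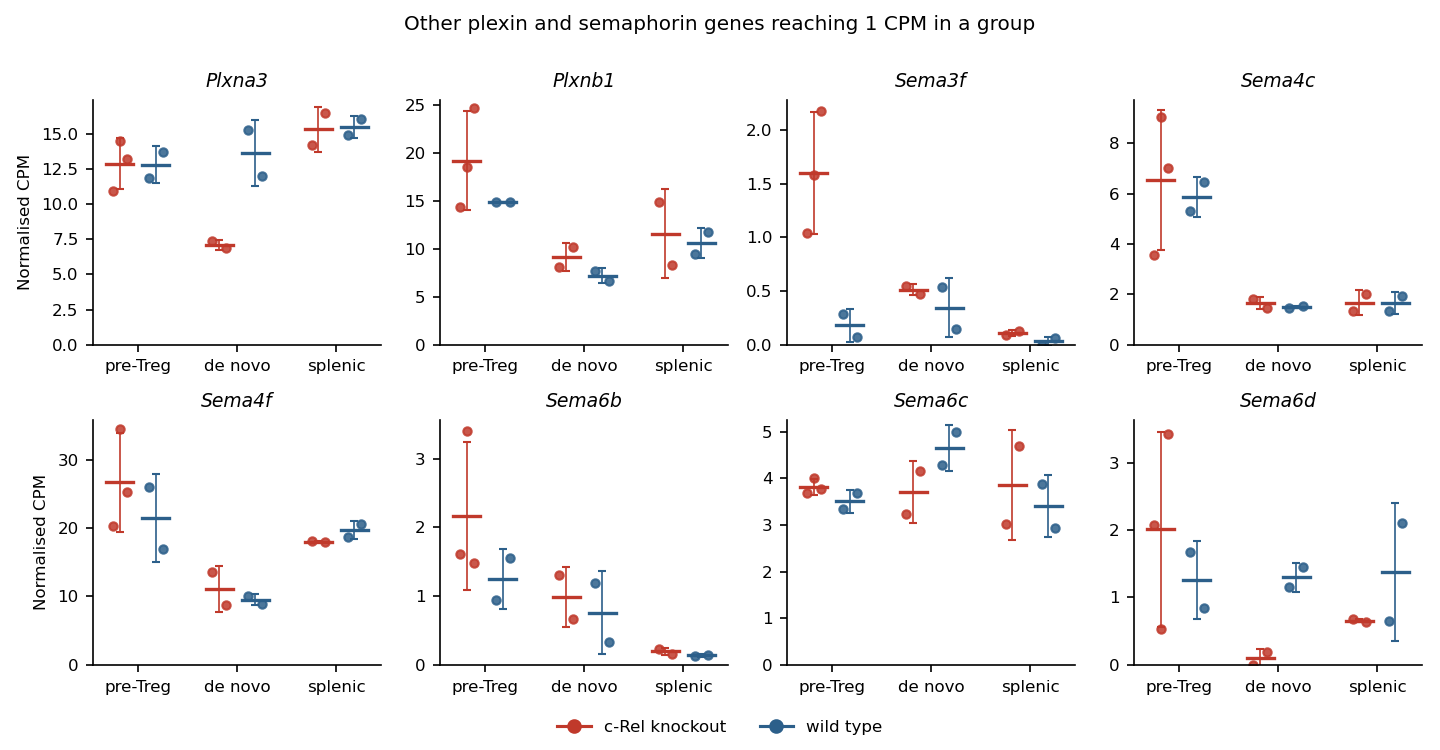
TMM-normalised CPM (y axis, linear, from 0) of the 8 other plexin and semaphorin genes that reached a mean of 1 CPM in a group, by stage (x axis). Points are libraries, c-Rel knockout left of wild type; lines are means and bars the SD. Plxna3 in knockout de novo Tregs, at 7.35 and 6.87 CPM, lies below all other groups, and Sema6d there is at 0 and 0.198 CPM.

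Across stages the called genes of this set fell at the first step. In knockout cells, where 32.4% of all genes tested were called, 5 of 11 fell between pre-Tregs and de novo Tregs, namely Plxna3, Plxnb1, Sema4c, Sema4f and Sema6d. In wild type, where 30.7% were called, 4 of 11 fell, namely Plxnb1, Sema4c, Sema4f and Plxna4. Plxna4 was low, with a highest group mean of 0.574 CPM and 64 counts over the 13 libraries, and DESeq2 did not call it. In knockout cells limma-voom did not call Sema6d. Sema4c, a class 4 semaphorin, averaged 1.49 CPM in wild-type de novo Tregs, against 5.87 CPM in wild-type pre-Tregs. Between de novo and splenic Tregs 1 of the 11 rose in each genotype, where 12.9% of all genes were called in knockout cells and 7.45% in wild type: Plxna3 in knockout cells by 1.11 (SE 0.21) and Sema4f in wild type by 1.05 (SE 0.28).

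Of 47 partner genes, which cover receptors and ligands outside the family and cytoplasmic partners, 1 was higher and 2 lower among 36 tested in de novo knockout Tregs, where 6.46% of all genes were called. Itgb1, the beta-1 integrin that also serves as a Sema7a receptor, averaged 115 CPM in knockout libraries, against 196 CPM in wild type, and fell by 0.76 on the log2 scale (SE 0.08, adjusted p = 0.000195). Cd72, the Sema4d receptor of lymphoid cells, averaged 35.1 CPM in knockout libraries, against 53.2 CPM in wild type, and fell by 0.60 (SE 0.10, adjusted p = 0.00424). Fyn, a kinase that acts with plexins in neurons, rose by 0.33 (SE 0.08, adjusted p = 0.0272). No partner was called in pre-Tregs, of 36 tested, or in splenic Tregs, of 37, with 3 and 4 at an unadjusted p under 0.05 in edgeR; limma-voom called 0 in both and DESeq2 0 and 1, which was Rras. From pre-Tregs to de novo Tregs 9 of 38 tested partners rose and 6 fell in knockout cells, where 32.4% of all genes were called, and 7 of 38 rose and 4 fell in wild type, where 30.7% were. These shares lie near those of all genes. In wild type the 4 with the lowest adjusted p were Cd72, up by 1.40 (SE 0.20), the adhesion molecule L1cam, up by 1.58 (SE 0.25), Arhgef12, a plexin B-associated exchange factor, up by 1.28 (SE 0.22), and Tgfbr3, the TGF-beta co-receptor, down with a log2 difference of -1.86 (SE 0.28). From de novo to splenic Tregs 5 of 38 rose and 2 fell in knockout cells, where 12.9% of all genes were called, and 4 of 38 rose and 2 fell in wild type, where 7.45% were; Vegfa, a neuropilin ligand, fell in both, to 0.755 CPM in splenic knockout Tregs against 5.12 CPM in de novo knockout Tregs, and to 0.200 CPM against 2.505 CPM in wild type.

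Over the 13 libraries the 5 genes most like Nrp1 among 9383 genes, by Pearson correlation of log2 CPM, were Lamc1 (r = 0.989), Irf5 (0.985), Rnf216 (0.983), Map6 (0.978) and H2-Q6 (0.978). Lamc1, a laminin chain, averaged 27.2 CPM in knockout and 44.9 CPM in wild-type de novo Tregs. Among the members, Sema4d had an r of 0.946 with Nrp1, Plxnc1 of 0.873, Sema4b of 0.853, Nrp2 of -0.38 and Sema4a of -0.89. Foxp3 had an r of 0.927 and Ikzf2 of 0.0137. These values describe 13 libraries that fall into 3 stages with a count table each, and they say nothing of shared control.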

How the data were processed

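The authors deposited unnormalized counts per gene, in 1 table per stage, and all 13 count columns were used. The submitters' processing notes list STAR 2.5.2, featureCounts and Subread 1.5.2 with the build GRCm38. Which annotation and strand setting were used is not stated. Samples were grouped and numbered by their titles.

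Tests used R 4.3.3 and edgeR 4.0.16 with TMM scaling, filterByExpr (minimum count 10, minimum total 15) and the quasi-likelihood F-test. Each stage was fitted alone on its whole table for knockout over wild type, and 6 group means over 13 libraries gave the interaction and the stage comparisons. Adjusted p is Benjamini-Hochberg over all genes tested, and calls, and the words rose, fell and changed, need a value under 0.05. SE is that of the fit. DESeq2 1.42.0, limma-voom (limma 3.58.1), other scaling and filters, a replicate block and leaving out each library were alternatives. The fits were checked on simulated data.

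All 10 members are named in every comparison; of other family and partner genes, those called, up to 4 by adjusted p in each comparison, and family genes with a group mean of 1 CPM. Members, gene lists and markers were chosen with earlier results of these data known. Gene coordinates, exonic lengths and exon overlaps are those deposited with the pre-Treg counts, on GRCm38. Promoter windows are from RefSeq on GRCm38.p6.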

Additional observations from a re-analysis of the deposited data

Results flagged for a closer look

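Sema4d went opposite ways in the later stages: every knockout library lay above every wild-type library in de novo Tregs and below every one in splenic Tregs. The log2 difference of knockout over wild type was larger by 0.282 in de novo Tregs. The test of that difference in the fit of all libraries gave -0.28 for splenic minus de novo (SE 0.20, edgeR adjusted p = 1.0), and -0.27 with an adjusted p of 0.561 in the fit of the 8 de novo and splenic libraries, so it did not hold up against the replicate spread.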

How the results depend on the processing

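Precision was limited by 2 or 3 libraries per group, by the wide pre-Treg spread and, for Sema7a and splenic Nrp2, by low counts. The calls of Nrp1 and Nrp2 in de novo Tregs held with DESeq2, limma-voom, RLE scaling, no count filter, the replicate block and without each library in turn, with log2 differences from -1.06 to -0.757 and from -1.41 to -0.945 when a library was left out; with 1 spread shared over the stages 0 members were called there. In pre-Tregs DESeq2, no count filter, the replicate block and the shared spread each called 1 member, Nrp2, and leaving out a library gave 0 to 1. In splenic Tregs leaving out a library gave 0 to 4. Between de novo and splenic Tregs leaving out a library gave 1 to 5 members in knockout cells; in wild type it gave 1 to 5, DESeq2 called 4, and the fit of 8 libraries, chosen after seeing the data, 8. For knockout de novo Tregs over pre-Tregs it gave 3 to 6. The genotype difference of splenic minus de novo Tregs was called for 0 members in the fit of all libraries and 1, Nrp1, in that of 8. The share of all genes called also moved between fits. For splenic over de novo Tregs in wild type it was 7.45% in the fit of all libraries and 23.6% in that of 8. No such share is given for the fits that left out a library or used another tool. Their counts of members therefore cannot be set against all genes.

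Same-numbered libraries deviated from their group means with correlations of -0.16 and -0.17 among pre-Tregs, -0.02 among de novo and -0.11 among splenic libraries. These values are weak, but they cannot exclude that a number pairs samples. In de novo and splenic Tregs the deviations within a pair of libraries mirror each other, so both numbers give the same value. The replicate block changed the sign of Nrp1 (-0.23) and Sema4d (-0.0117) in pre-Tregs and of Sema7a (-0.0527) in de novo Tregs, where limma-voom gave -0.11; with it Plxnd1 (-0.624, adjusted p = 0.0917) and Sema4b (0.503, adjusted p = 0.0564) were not called and Nrp2 was (1.08, adjusted p = 0.0261) for knockout de novo over pre-Tregs, and Plxnc1 was called for knockout splenic over de novo Tregs (0.58, adjusted p = 0.0441). The replicate block called 77 genes in pre-Tregs, 962 in de novo and 361 in splenic Tregs, against 0, 766 and 168 without a block. With the numbers crossed it called 803 genes and 0 members in splenic Tregs. Small differences changed sign when a library was left out, none of them called in full. For knockout over wild type in pre-Tregs, Nrp1 ran from -0.259 to 0.464 and Sema4d from -0.00559 to 0.131. In de novo Tregs Plxna1 ran from -0.284 to 0.55, Plxnd1 from -0.275 to 0.342, Plxnb2 from -0.21 to 0.0781, Sema4b from -0.191 to 0.0744 and Sema7a from -0.935 to 0.652. In splenic Tregs Plxnd1 ran from -0.468 to 0.0381, Plxnb2 from -0.81 to 0.134, Plxnc1 from -0.24 to 0.102, Sema4a from -0.0115 to 0.348 and Sema7a from -0.341 to 0.733. For de novo over pre-Tregs, Plxna1 ran from -0.128 to 0.201 in knockout cells, and in wild type Plxna1 from -0.285 to 0.545 and Nrp2 from -0.947 to 0.0706. For splenic over de novo Tregs, Sema4a ran from -0.231 to 0.111, Sema4d from -0.0583 to 0.215 and Sema7a from -0.959 to 0.705 in knockout cells, and Sema4a from -0.0463 to 0.056 in wild type. The cause of these changes was not tested. Of the other signed values for single genes, 1000 kept their direction and their side of the threshold, 45 lost a call and 34 gained one; the joint interaction test, which has no direction, stayed on its side of the threshold in 180 of 180.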
